A study of Mus musculus with 85 samples.

Results

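The hippocampal transcriptome of male AD mice on a methionine-restricted feed (MADMR) was compared with that of male control mice on the same feed (MWTMR). The libraries were chosen by their sample titles, which gave 11 MADMR and 10 MWTMR libraries, 21 of the 85 in the series, each from total RNA of 1 hippocampus sample. AD mice of this series are transgenic: they carry a chimeric mouse and human App gene with the Swedish mutations and a further transgene. As background, both transgenes of this line are driven by prion protein (Prnp) promoter elements, which are active in much of the brain. Control mice were C57BL/6J. All mice were 8 months old. MADMR and MWTMR mice shared the restricted feed and male sex, so the comparison asks what the AD genotype changed under methionine restriction. The other groups were MAD and MWT (AD and control males on standard feed, n = 11 and 11), FADMR and FWTMR (females on restricted feed, n = 11 and 10) and FAD and FWT (females on standard feed, n = 11 and 10). The labels give no litter, cage, batch or date. The p-values set a group difference against the spread between mice within groups. Whatever else differed between the groups cannot be told apart from genotype.

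Microglia are the resident macrophages of the brain. Around amyloid plaques they leave their resting state. The receptor Trem2 and its adaptor Tyrobp signal, and the cells take up a program of lysosomal genes, chemokines and surface receptors such as Cst7, Ccl3 and Clec7a, while astrocytes nearby raise the filament protein Gfap. Methionine restriction lowers the supply of the sulfur amino acid that feeds S-adenosylmethionine, the methyl donor of the cell, and cysteine.

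The deposited unit was FPKM, a fragment count corrected for transcript length and for the size of the library. Levels of genes share this scale, but some assembled loci varied widely within a group. Mtrr ran from 0.728 to 4.37 FPKM in MADMR mice and Yaf2 from 50.5 to 205.5 FPKM in MWTMR mice. The cause of such spread was not tested, so levels of such loci are compared with care. Total FPKM was 960404 to 1036070 in MADMR libraries and 942337 to 1035752 in MWTMR libraries. Read depth is unknown. The Y-linked Ddx3y was at 226 to 583 FPKM in MADMR and 191 to 536 FPKM in MWTMR mice, both groups being labelled male. Loci at 1 FPKM or more numbered 17732 to 19534 in MADMR and 17780 to 19576 in MWTMR libraries, and the mitochondrial loci held 10.4% to 16.7% of the total in MADMR and 9.37% to 16.1% in MWTMR libraries. All 11 markers of hippocampal neurons passed the filter on low values, with a summed level of 1771 to 3442 FPKM in MADMR and 1491 to 3944 FPKM in MWTMR mice. Markers of choroid plexus, a tissue that borders the hippocampus, summed to 11.2 to 970 FPKM in MADMR and 65.1 to 1082 FPKM in MWTMR mice. Their spread was wide in both groups, and the part of neighbouring tissue in the results was not tested beyond a fit with tissue scores as covariates, in which all 24 called loci described below passed again. In bulk tissue, more cells of a type and more RNA per cell cannot be told apart.

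A locus is called here when limma's moderated test on log2(scaled FPKM + 1), fitted over all 85 libraries and adjusted by Benjamini-Hochberg over 21300 loci, gave an adjusted p under 0.05. Differences are MADMR minus MWTMR on this log2 scale with their standard error (SE). They understate the change of genes with low FPKM, so ratios of mean FPKM are given as well. The test called 24 of 21300 loci (0.113%). Of these, 20 were higher in MADMR mice (0.0939% of loci), 16 of them with a gene symbol, and 4 were lower (0.0188%), all with a symbol. Without adjustment, 1036 loci were higher (4.86%) and 1153 lower (5.41%) at p under 0.05. Counts of unadjusted p in the gene lists below are to be read against these shares. The median difference was -0.00749 over all loci and -0.051 over the 13944 tested loci with a symbol. The lists hold loci with a symbol, so a small negative list median is near the latter.

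Promoters are shown for 5 of the rising genes whose MADMR and MWTMR values did not overlap: Prnp, whose promoter the transgenes carry, and 4 genes of the microglial program. The sequences are RefSeq's, build GRCm38.p6, from 250 bases before to 50 bases after the annotated start, written 5′ to 3′ on the strand of the gene. Capitals mark the PU.1 core GAGGAA or the AP-1 motif TGANTCA, on either strand (TTCCTC is GAGGAA read on the other strand).
Prnp promoter (chr2:131909678-131909977, plus strand): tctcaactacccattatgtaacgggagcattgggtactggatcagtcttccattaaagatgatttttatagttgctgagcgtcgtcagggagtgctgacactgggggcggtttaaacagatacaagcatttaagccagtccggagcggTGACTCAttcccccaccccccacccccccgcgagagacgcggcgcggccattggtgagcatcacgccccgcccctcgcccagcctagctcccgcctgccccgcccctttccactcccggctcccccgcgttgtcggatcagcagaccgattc
Ccl3 promoter (chr11:83649329-83649628, minus strand): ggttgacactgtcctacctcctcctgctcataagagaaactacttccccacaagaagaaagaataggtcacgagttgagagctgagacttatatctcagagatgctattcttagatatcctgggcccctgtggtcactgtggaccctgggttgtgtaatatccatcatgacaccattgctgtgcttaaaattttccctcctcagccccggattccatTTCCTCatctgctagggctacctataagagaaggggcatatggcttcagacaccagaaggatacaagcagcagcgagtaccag
Cst7 promoter (chr2:150570165-150570464, plus strand): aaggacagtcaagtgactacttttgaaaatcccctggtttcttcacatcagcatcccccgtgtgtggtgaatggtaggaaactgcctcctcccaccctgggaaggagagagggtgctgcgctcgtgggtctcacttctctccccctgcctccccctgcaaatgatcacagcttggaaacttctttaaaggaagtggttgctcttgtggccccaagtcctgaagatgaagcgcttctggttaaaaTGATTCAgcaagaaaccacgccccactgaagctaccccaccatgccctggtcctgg
Clec7a promoter (chr6:129472730-129473029, minus strand): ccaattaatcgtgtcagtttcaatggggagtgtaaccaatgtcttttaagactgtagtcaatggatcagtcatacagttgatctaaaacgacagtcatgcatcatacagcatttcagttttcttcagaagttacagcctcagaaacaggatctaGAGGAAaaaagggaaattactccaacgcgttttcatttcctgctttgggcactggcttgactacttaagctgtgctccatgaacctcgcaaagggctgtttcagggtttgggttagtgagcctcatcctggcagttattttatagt
Cd68 promoter (chr11:69666121-69666420, minus strand): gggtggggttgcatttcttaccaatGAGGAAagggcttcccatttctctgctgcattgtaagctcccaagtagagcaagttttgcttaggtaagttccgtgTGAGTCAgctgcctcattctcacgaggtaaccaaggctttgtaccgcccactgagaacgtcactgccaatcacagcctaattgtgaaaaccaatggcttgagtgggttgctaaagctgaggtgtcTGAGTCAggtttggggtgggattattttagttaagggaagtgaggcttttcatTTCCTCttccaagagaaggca

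Of the 16 rising genes with a symbol, 12 had a promoter in the RefSeq table. Lilrb4a, Cd52 and Tyrobp were among the others. GAGGAA, the core bound by the myeloid factor PU.1, occurred in 6 of the 12 windows (Slc11a1, Clec7a, Cd68, Ccl3, Gfap and Trem2), against 28.3% of the 27025 promoters in the table. TGANTCA occurred in 4 of the 12 (Prnp, Cst7, Cd68 and Trem2), against 7.93% of all promoters, and Cd68 held 2 copies of each motif. A motif for the factor NF-kappaB occurred in 0 of the 12, against 1.62% of all promoters. Each window shown above held a marked motif. The windows of Tlr2, Fcer1g, Lyz2 and Ly86, which are not shown, held no match to any of these motifs. All counts are of letter matches in a short window.

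The locus of Prnp (chr2:131909928-131938436), joined in the table with Prn and Prnd, separated the genotypes first. Its lowest, median and highest values were 977, 1163 and 1446 FPKM in MADMR mice and 259, 371 and 427 FPKM in MWTMR mice. Every MADMR mouse lay above every MWTMR mouse. The difference was 1.70 ± 0.078 (SE; adjusted p = 4.18e-31, limma), a ratio of means of 3.25. The largest rise of all called loci was MSTRG.4241, a transcript that the authors' assembly left without a gene name. The Prnp locus bears the next assembly number, MSTRG.4242. MSTRG.4241 was at 3.26 ± 0.671 FPKM in MADMR and 0.0311 ± 0.0307 FPKM in MWTMR mice (SD, n = 11 and 10). Its difference was 2.03 ± 0.07 (SE, adjusted p = 1.24e-39, limma). Whether reads from the transgenes counted toward either locus was not tested. App (chr16:84952666-85175255), the amyloid precursor gene, had a lowest, median and highest level of 2387, 3465 and 4426 FPKM in MADMR mice and 2062, 3104 and 3853 FPKM in MWTMR mice. The groups overlapped, and the difference of 0.21 ± 0.091 (SE) did not pass the adjustment (adjusted p = 0.451, limma; 95% interval 0.03 to 0.39), with 9 of 11 MADMR mice above the MWTMR median. In the list of amyloid precursor processing, 1 of 10 tested genes was called, the Prnp locus itself. Aplp1 and Aplp2, the paralogs of App, differed by -0.08 ± 0.049 and -0.08 ± 0.057 (SE; adjusted p = 0.582 and 0.626, limma).

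Of the gene lists, that of plaque-associated microglia held the most called genes. The list was chosen with earlier results of these data known, so its counts are a description. Of 33 genes listed, 28 passed the filter on low values, and 11 of those were called higher and 0 lower, against 0.0939% of all loci called higher. The median difference of the 28 was 0.396, with 21 above 0, against -0.00749 and 48.2% of loci above 0 over all loci. The 11 were Ccl3, Lilrb4a, Cst7, Lyz2, Clec7a, Trem2, Cd52, Tyrobp, Slc11a1, Ly86 and Cd68. Among all 21300 loci the groups did not overlap for 11 higher loci (0.0516%), of which 8 belonged to this list. The filter asked for 1 FPKM in 10 or more libraries of any group. Cst7, Clec7a and Lilrb4a averaged 0.0252, 0.124 and 0.187 FPKM in MWTMR mice and under 1 FPKM in every other control group. The same held for Cd52, Tlr2 and MSTRG.4241, at 0.606, 0.508 and 0.0311 FPKM in MWTMR mice. Entry of these loci into the test thus rested largely on AD libraries. Cst7, Clec7a, Lilrb4a and Cd52 count toward the 11 called and the 8 apart, so both counts depend in part on the filter. Tlr2 and MSTRG.4241 count toward the 11 higher loci without overlap, which depend on it as well. Without a filter the calls of all these loci held, while those of Trem2, Tyrobp and Slc11a1 did not.

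Ccl3 (chr11:83647843-83649378), a chemokine that draws in monocytes and microglia, had the largest difference of the called microglial genes on the log2(scaled FPKM + 1) scale, whereas the ratio of means was larger for Cst7, Clec7a and Lilrb4a. Its lowest, median and highest values were 2.61, 3.18 and 6.17 FPKM in MADMR mice and 0.373, 0.515 and 1.22 FPKM in MWTMR mice. The ranges lay apart, and the difference was 1.47 ± 0.181 (SE; adjusted p = 3.26e-08, limma), a ratio of means of 5.57. Ccl4, a chemokine encoded beside Ccl3, was under the filter at 0.0166 ± 0.00619 FPKM in MADMR and 0.00244 ± 0.00138 FPKM in MWTMR mice (SD). It had no test and is named because its 2 groups did not overlap, which was seen in the data. On standard feed its means were 0.0126 FPKM in MAD, 0.00137 in MWT, 0.018 in FAD and 0.00339 FPKM in FWT mice. In females on restricted feed they were 0.018 FPKM in FADMR and 0.00677 FPKM in FWTMR mice.

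Among the receptors, Lilrb4a (chr10:51490898-51496613), an inhibitory immunoglobulin-like receptor, was at 0.591, 1.03 and 1.92 FPKM (lowest, median, highest) in MADMR mice and at 0.0453, 0.181 and 0.437 FPKM in MWTMR mice. No values overlapped, and the difference was 0.81 ± 0.128 (SE; adjusted p = 4.79e-05, limma), a ratio of means of 5.9. Clec7a (chr6:129461591-129472785), which encodes the beta-glucan receptor dectin-1, was at 0.338, 0.757 and 1.93 FPKM in MADMR mice and at 0.0625, 0.122 and 0.199 FPKM in MWTMR mice. Again no values overlapped, and the difference was 0.68 ± 0.106 (SE; adjusted p = 4.79e-05, limma), a ratio of means of 6.72. Tlr2 (chr3:83836272-83841824), a receptor for microbial lipoproteins that was not in the plaque list, had 0.823, 1.03 and 1.59 FPKM in MADMR mice and 0.388, 0.52 and 0.7 FPKM in MWTMR mice. Its groups did not overlap either, with a difference of 0.46 ± 0.0985 (SE; adjusted p = 0.0228, limma).

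Trem2 (chr17:48346401-48352276), the lipid-sensing receptor of microglia, was at 19, 23.2 and 51.8 FPKM in MADMR mice and at 11.5, 15.4 and 18.5 FPKM in MWTMR mice (lowest, median, highest). Tyrobp (chr7:30413782-30417582), the signalling adaptor of Trem2, was at 11.2, 13.8 and 25.5 FPKM in MADMR mice and at 7, 9.39 and 11 FPKM in MWTMR mice. For both genes every MADMR mouse lay above every MWTMR mouse, with ratios of means of 1.68 for Trem2 and 1.6 for Tyrobp. The differences were 0.67 ± 0.152 for Trem2 (SE; adjusted p = 0.0376) and 0.60 ± 0.133 for Tyrobp (SE; adjusted p = 0.0313, limma). Fcer1g, the Fc receptor gamma chain and a second adaptor of this kind, was at 244, 298 and 432 FPKM in MADMR mice and at 168, 210 and 253 FPKM in MWTMR mice. Here the groups touched: 9 of 11 MADMR mice lay above the highest MWTMR mouse, and the difference was 0.52 ± 0.114 (SE; adjusted p = 0.0299, limma).

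Cd52 (chr4:134093538-134095073), a small glycoprotein on the surface of leukocytes, was at 0.931, 1.31 and 3.37 FPKM in MADMR mice and at 0.338, 0.632 and 0.819 FPKM in MWTMR mice. The groups did not overlap, and the difference was 0.61 ± 0.119 (SE; adjusted p = 0.00587, limma), a ratio of means of 2.49. Ly86, the partner of an innate receptor of the Toll-like family, shares its locus with Gm40913 in the table. It was at 22, 27.1 and 38.1 FPKM in MADMR mice and at 13.7, 17.8 and 22.7 FPKM in MWTMR mice, and 10 of 11 MADMR mice lay above the MWTMR range. Its difference was 0.58 ± 0.121 (SE; adjusted p = 0.0138, limma).

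Of the lysosomal genes, Cst7 (chr2:150570415-150578944), which encodes the cathepsin inhibitor cystatin F, was nearly silent in controls. It was at 0.345, 0.612 and 2.15 FPKM in MADMR mice and at 0, 0.0315 and 0.044 FPKM in MWTMR mice, of which 2 of 10 were listed at 0. The groups did not overlap, and the difference was 0.79 ± 0.147 (SE; adjusted p = 0.00194, limma), a ratio of means of 33.2 against controls near 0. Cd68 (chr11:69664213-69666170), a glycoprotein of the lysosome membrane in phagocytes, was at 1.53, 1.82 and 3.05 FPKM in MADMR mice and at 0.976, 1.17 and 1.38 FPKM in MWTMR mice. These groups did not overlap, with a difference of 0.44 ± 0.0936 (SE; adjusted p = 0.0223, limma). The locus of Lyz2, the macrophage lysozyme, holds reads of its near copy Lyz1 as well. It rose by 0.77 ± 0.171 (SE; adjusted p = 0.0299) and Slc11a1, a metal transporter of the phagosome, by 0.60 ± 0.136 (SE; adjusted p = 0.0376, limma), and both overlapped with the controls. Over the wider lysosome and autophagy list, 0 of 27 tested genes were called, 4 had an unadjusted p under 0.05 in limma (3 higher, 1 lower), and the median difference was 0.0156. Ctsz and Ctss, cathepsins of this group, differed by 0.41 ± 0.122 and 0.36 ± 0.131 (SE; adjusted p = 0.219 and 0.394, limma). Ctss shares its locus with Ctsk. Map1lc3b, an autophagosome protein, differed by -0.18 ± 0.0895 (SE; adjusted p = 0.484).

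**Figure D1:**
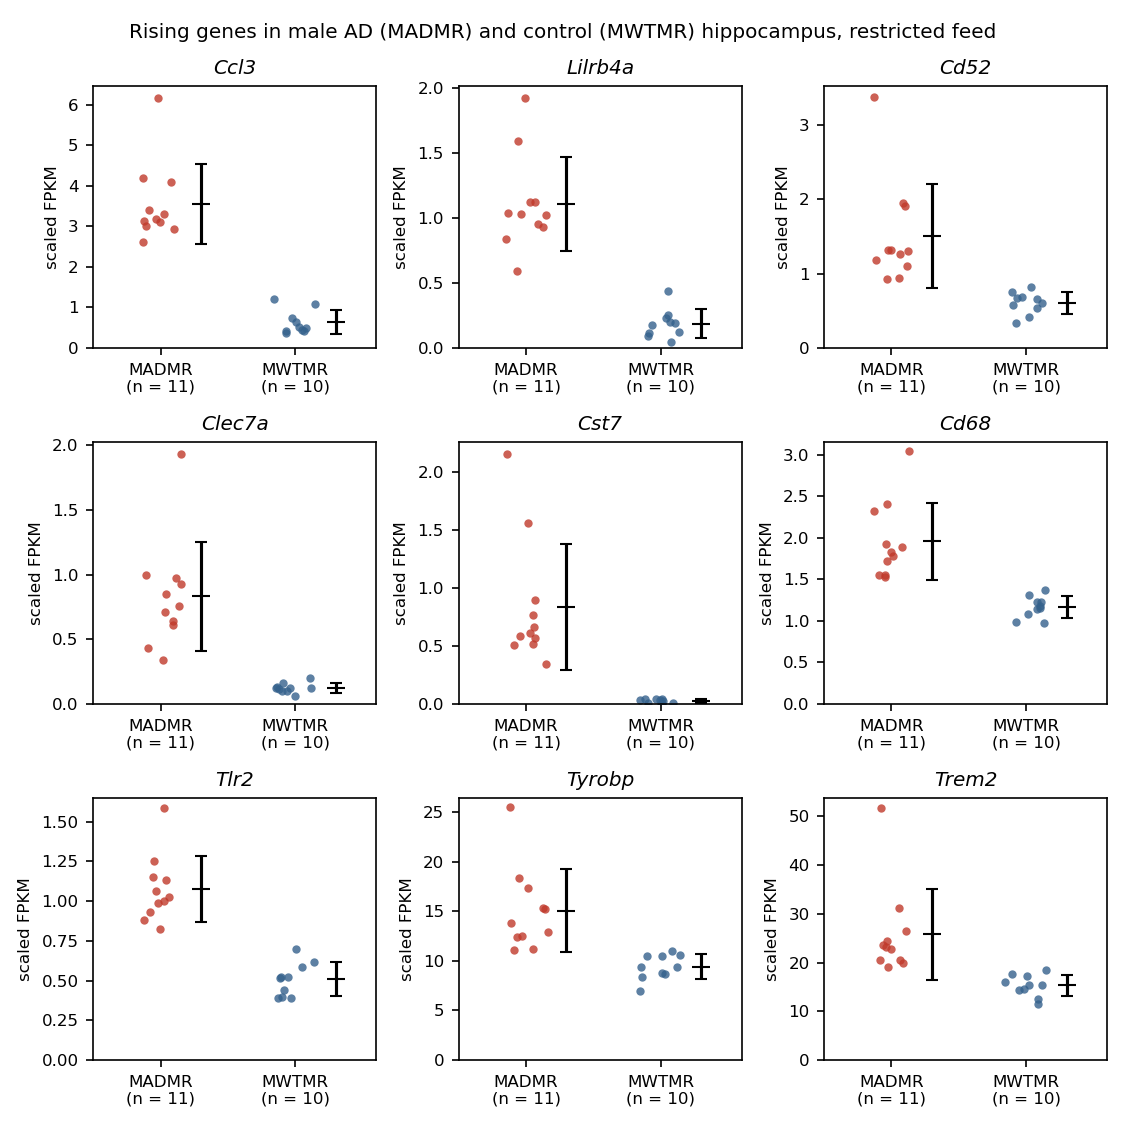
Scaled FPKM in each mouse for 9 rising microglial genes, with MADMR mice (n = 11) on the left and MWTMR mice (n = 10) on the right of each panel; bars give mean ± SD and axes start at 0. In all 9 panels the lowest MADMR mouse lies above the highest MWTMR mouse, for Ccl3 at 2.61 against 1.22 FPKM and for Cst7 at 0.345 against 0.044 FPKM.

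Genes of resting microglia did not pass the test. Of 15 tested, 0 were called, 3 had an unadjusted p under 0.05 in limma (2 higher, 1 lower), and the median difference was 0.115. Fcrls, an Fc receptor-like gene of resident microglia, was at 20.2 ± 4.8 FPKM in MADMR and 14.5 ± 4.19 FPKM in MWTMR mice (SD; adjusted p = 0.394). Mertk, a receptor for the uptake of dead cells, was at 22.4 ± 5.24 FPKM in MADMR and 29.2 ± 6.6 FPKM in MWTMR mice (SD; adjusted p = 0.432, limma).

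In the complement and Fc receptor list, 1 of 10 tested genes was called (Fcer1g) and the median difference was 0.251. Itgb2, the integrin chain of complement receptor 3, was at 7.46 ± 1.47 FPKM in MADMR and 5.32 ± 0.764 FPKM in MWTMR mice (SD; adjusted p = 0.158), Fcgr1 at 2.32 ± 0.605 and 1.71 ± 0.217 FPKM in MADMR and MWTMR mice (adjusted p = 0.279), and C1qb, a chain of the first complement component, at 22.1 ± 6.15 and 16.9 ± 2.09 FPKM in MADMR and MWTMR mice (adjusted p = 0.358, limma). Of 20 tested chemokines, cytokines and receptors, 1 was called (Ccl3), with a median difference of 0.14. Ccl6, another myeloid chemokine, was at 0.716 ± 0.386 FPKM in MADMR and 0.297 ± 0.0755 FPKM in MWTMR mice (SD; adjusted p = 0.115). Tgfbr2, a receptor for TGF-beta, differed by 0.39 ± 0.119 and the cytokine gene Il18 by -0.18 ± 0.0776 (SE; adjusted p = 0.243 and 0.442, limma).

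Type I interferon response genes were not called in any of 19 cases, although 17 of the 19 differences were above 0 (16 or 17 across the scalings tried) and their median was 0.196. In limma 1 of them had an unadjusted p under 0.05. Phf11b was at 6.92 ± 4.36 FPKM in MADMR and 3.64 ± 1.67 FPKM in MWTMR mice, and Ifit3, an antiviral effector, at 19.7 ± 8.54 and 13.8 ± 5.21 FPKM in MADMR and MWTMR mice (SD; adjusted p = 0.419 and 0.521). Antigen presentation showed 0 of 10 called, 1 with an unadjusted p under 0.05 in limma, and a median of 0.3. B2m, the invariant chain of class I molecules, was at 85.5 ± 18 FPKM in MADMR and 70.7 ± 10 FPKM in MWTMR mice, and 11 of 11 MADMR mice lay above the MWTMR median, but the adjusted p was 0.442 (limma).

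Markers of other immune cells were low. The summed level of 7 T-cell markers, all under the filter, was 0.148, 0.767 and 3.14 FPKM (lowest, median, highest) in MADMR mice and 0.0775, 0.215 and 0.534 FPKM in MWTMR mice, and 7 of 11 MADMR mice lay above the MWTMR range. Trbc2, a T-cell receptor locus, averaged 0.565 FPKM in MADMR and 0.0856 FPKM in MWTMR mice and reached 2.99 FPKM in 1 MADMR mouse. Means of Cd8a were 0.236 FPKM in MADMR and 0.0779 FPKM in MWTMR mice and of Cd3g 0.0549 and 0.00245 FPKM in MADMR and MWTMR mice. Cd4, Cd3e and Cd2 were at means of 0.0556, 0.0309 and 0.00243 FPKM in MADMR and 0.0431, 0.029 and 0 FPKM in MWTMR mice, and Cd3d, at 0 in all MADMR mice, averaged 0.00274 FPKM in MWTMR mice. The summed level ran from 0.279 to 1.43 FPKM in MAD and 0.127 to 3.5 FPKM in MWT mice, from 0.746 to 12.2 FPKM in FADMR and 0.121 to 1.66 FPKM in FWTMR mice, and from 0.463 to 1.85 FPKM in FAD and 0.198 to 0.981 FPKM in FWT mice. Markers of border macrophages and monocytes summed to 0.904 to 2.85 FPKM in MADMR and 0.768 to 2.6 FPKM in MWTMR mice, those of neutrophils to 0.137 to 1.12 FPKM in MADMR and 0.157 to 0.684 FPKM in MWTMR mice, and those of B cells to 0.116 to 0.613 FPKM in MADMR and 0.149 to 0.447 FPKM in MWTMR mice. Their part in the rise of the microglial genes was not tested.

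Among astrocyte genes, Gfap (chr11:102887336-102897200), the intermediate filament of reactive astrocytes, rose. It was at 1419, 1960 and 3483 FPKM in MADMR mice and at 1053, 1353 and 1604 FPKM in MWTMR mice (lowest, median, highest). The groups overlapped slightly: 9 of 11 MADMR mice lay above the MWTMR range, and the difference was 0.66 ± 0.146 (SE; adjusted p = 0.0299, limma), a ratio of means of 1.63. Of 15 tested genes of reactive astrocytes, Gfap alone was called, with a median difference of 0.212 over the list. S100a6, a calcium-binding protein, was at 6.87 ± 1.11 FPKM in MADMR and 5.29 ± 0.925 FPKM in MWTMR mice (SD; adjusted p = 0.279), and Cd14, a coreceptor for bacterial lipopolysaccharide, at 1.53 ± 0.829 and 0.896 ± 0.236 FPKM in MADMR and MWTMR mice (SD; adjusted p = 0.324). The highest Cd14 value, 3.55 FPKM, came from MADMR replicate 3, and the cell type that expressed Cd14 was not tested. Aspg, an asparaginase, was at 2.9 FPKM in the median MADMR mouse and 2.02 FPKM in the median MWTMR mouse (adjusted p = 0.394, limma), with 1 MADMR mouse, replicate 3, at 18.4 FPKM.

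None of 13 genes of homeostatic astrocytes was called in limma, 3 had an unadjusted p under 0.05 (1 higher, 2 lower), and the median difference was -0.13. Gjb6, the gap junction protein connexin 30, was at 23, 51.6 and 60.9 FPKM in MADMR mice and at 55.5, 62.6 and 80 FPKM in MWTMR mice (lowest, median, highest). Although 10 of 11 MADMR mice lay below the MWTMR range, the difference of -0.64 ± 0.168 (SE) had an adjusted p of 0.121 (limma). Sox9, a transcription factor of astrocytes, was at 35.7 ± 4.2 FPKM in MADMR and 28.9 ± 2.63 FPKM in MWTMR mice (SD; adjusted p = 0.145), and Aldoc, the brain aldolase, at 254 ± 44.8 and 283 ± 37.6 FPKM in MADMR and MWTMR mice (SD; adjusted p = 0.484).

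Only 4 loci fell. Cc2d1a (chr8:84132828-84147917), a repressor and scaffold protein linked to intellectual disability in humans, was at 6.22, 6.64 and 7.24 FPKM in MADMR mice and at 7.34, 7.92 and 8.6 FPKM in MWTMR mice (lowest, median, highest). It was the 1 fall in which every MADMR mouse lay below every MWTMR mouse, with a small difference of -0.22 ± 0.0502 (SE; adjusted p = 0.0428, limma). Among all loci, 2 lay apart in this direction (0.00939%), and the other one, Zcchc9, named because it lay apart, was not called (adjusted p = 0.394). Btbd6, an adaptor of ubiquitin ligases, was at 1.36, 4.32 and 6.3 FPKM in MADMR mice and at 4.2, 5.6 and 6.44 FPKM in MWTMR mice. Its groups overlapped, with 4 of 11 MADMR mice below the MWTMR range and a difference of -0.43 ± 0.0989 (SE; adjusted p = 0.0376, limma). Map3k19, a kinase gene, was at 2.01 ± 0.447 FPKM in MADMR and 3 ± 0.711 FPKM in MWTMR mice (SD), a difference of -0.40 ± 0.0902 (SE; adjusted p = 0.036). Narf, a protein that binds nuclear lamin A, was at 18.1 ± 3.27 FPKM in MADMR and 23.1 ± 2.23 FPKM in MWTMR mice (SD), a difference of -0.34 ± 0.08 (SE; adjusted p = 0.0463, limma). The calls of the falls were not stable to the settings. With FPKM as deposited, the adjusted p was 0.0753 for Map3k19, 0.101 for Btbd6, 0.236 for Cc2d1a and 0.189 for Narf, with no change of direction. With only the compared groups in the fit it was 0.228, 0.374, 0.101 and 0.228, without a filter 0.0508, 0.0576, 0.0508 and 0.0733, and with an equal total per library 0.0655, 0.11, 0.224 and 0.0869.

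**Figure D2:**
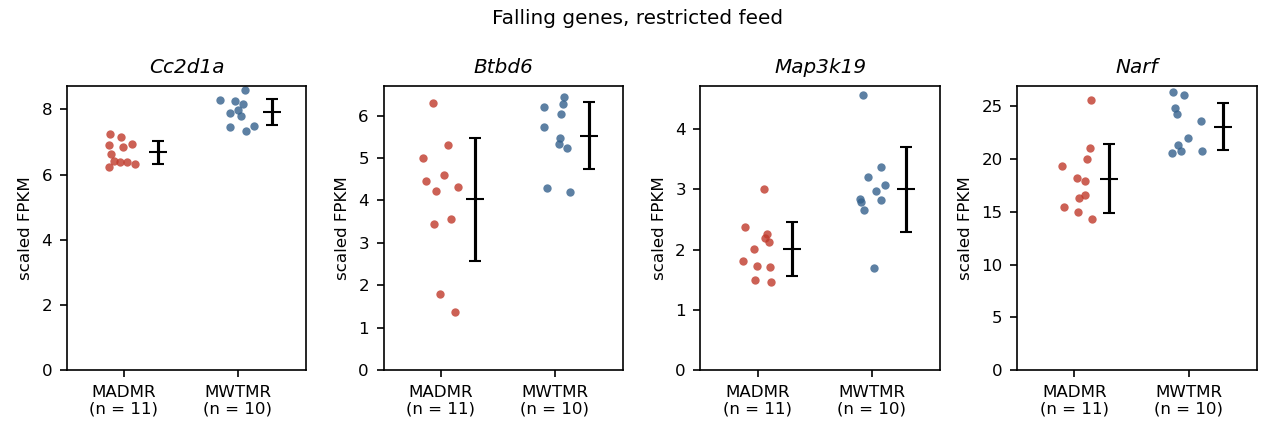
Scaled FPKM in each mouse for the 4 loci that fell, with MADMR mice (n = 11) left and MWTMR mice (n = 10) right in each panel; bars give mean ± SD and axes start at 0. For Cc2d1a the highest MADMR mouse, at 7.24 FPKM, lies just under the lowest MWTMR mouse, at 7.34 FPKM, while the other 3 genes overlap.

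Neuronal lists held no called gene. Of 11 markers of hippocampal neurons 0 were called and 0 had an unadjusted p under 0.05 in limma, with a median of -0.131 and 1 of 11 above 0; their part in the neuronal lists was not tested. Of 23 tested immediate early genes, which neurons switch on with activity, 0 were called and 2 had an unadjusted p under 0.05 in limma, both higher. Nr4a3, a nuclear receptor of this class, was at 74.2, 119 and 320 FPKM in MADMR mice and at 5.92, 53.3 and 183 FPKM in MWTMR mice (lowest, median, highest; difference 1.67 ± 0.465, SE; adjusted p = 0.17, limma). The control mice spread widely, 5 of 10 lying between 5.92 and 34.5 FPKM, so that the 2 groups overlapped in spite of a large difference. Arc, a synaptic gene induced by activity, was at 13.1 ± 3.36 FPKM in MADMR and 13.3 ± 2.09 FPKM in MWTMR mice (SD; adjusted p = 0.949, 95% interval of the difference -0.47 to 0.37). Nptx2, a synaptic pentraxin, reached 82 FPKM in MADMR replicate 3 against a MADMR median of 9.76 and a MWTMR median of 8.41 FPKM (adjusted p = 0.421).

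Glutamate receptors had 0 of 22 called with 1 unadjusted p under 0.05 (limma), Grik5, a kainate receptor subunit, at 40 ± 4.05 FPKM in MADMR and 45.2 ± 3.84 FPKM in MWTMR mice (SD; adjusted p = 0.407). Interneuron markers had 0 of 16 called with 3 unadjusted p under 0.05 (limma), all lower, and a median of -0.143, with 14 of 16 below 0. Cort, the neuropeptide cortistatin, was at 2.9 ± 0.975 FPKM in MADMR and 4.46 ± 1.4 FPKM in MWTMR mice (SD; adjusted p = 0.394). Striatal markers had 0 of 9 called, with a median of -0.138 and 2 of 9 above 0. Of these, the dopamine receptor gene Drd1 was at 1.12 ± 0.636 FPKM in MADMR and 0.607 ± 0.251 FPKM in MWTMR mice (SD, adjusted p = 0.291, limma). Its highest value, 2.79 FPKM, came from MADMR replicate 3. Pde10a, another striatal marker, was at 12 ± 1.63 FPKM in MADMR and 14.5 ± 3.6 FPKM in MWTMR mice (SD, adjusted p = 0.41, limma). Mbp, the myelin basic protein, was at 4237 ± 1051 FPKM in MADMR and 3991 ± 1301 FPKM in MWTMR mice (SD; adjusted p = 0.87). Ttr, the transthyretin gene of choroid plexus, ranged from 0.529 to 740 FPKM in MADMR and from 2.18 to 824 FPKM in MWTMR mice (adjusted p = 0.852, limma).

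Glucocorticoid response genes had 0 of 14 called and 4 unadjusted p under 0.05 (limma), all lower. Their median difference was -0.221 and 13 of 14 were below 0, or 12 to 13 across the scalings tried. Tsc22d3, the leucine zipper induced by glucocorticoids, was at 10.3, 21.8 and 27.8 FPKM in MADMR mice and at 19.1, 29.3 and 41 FPKM in MWTMR mice (lowest, median, highest). All 11 MADMR mice lay below the MWTMR median, and the adjusted p was 0.093 (difference -0.46 ± 0.116, SE, limma). Sgk1, a kinase of the same response, was at 98.2 ± 26.2 FPKM in MADMR and 127 ± 31.1 FPKM in MWTMR mice (SD; adjusted p = 0.467), and Ddit4, an inhibitor of mTOR signalling, at 3.36 ± 1.35 and 4.61 ± 1.41 FPKM in MADMR and MWTMR mice (SD; adjusted p = 0.462).

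No gene of the methionine cycle, one-carbon and polyamine list was called among 25 tested, and 2 had an unadjusted p under 0.05 (limma), both lower. The median was -0.0721, with 3 of 25 above 0 (3 to 7 across the scalings), against a median of -0.051 over tested loci with a symbol. Mat2a, the synthase of S-adenosylmethionine outside the liver, was at 4.94, 7.53 and 58.2 FPKM in MADMR mice and at 7.26, 8.63 and 12.2 FPKM in MWTMR mice (lowest, median, highest). The value of 58.2 FPKM came from MADMR replicate 4, and the difference was -0.00 ± 0.187 (SE; adjusted p = 0.997, 95% interval -0.38 to 0.37), which turned to 0.0257 with FPKM as deposited. Ahcy, which hydrolyses S-adenosylhomocysteine, was at 5.48 ± 0.755 FPKM in MADMR and 6.05 ± 0.385 FPKM in MWTMR mice (SD; adjusted p = 0.458), and Mtrr, the reductase that keeps methionine synthase active, at 2.5 ± 1.49 and 3.93 ± 1.34 FPKM in MADMR and MWTMR mice (SD; adjusted p = 0.45).

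Other metabolic lists were alike in this respect. Transsulfuration, hydrogen sulfide and taurine genes had 0 of 13 called with 1 unadjusted p under 0.05 (limma): Cth, which makes cysteine from cystathionine, was at 0.757 ± 0.243 FPKM in MADMR and 0.951 ± 0.27 FPKM in MWTMR mice (SD; adjusted p = 0.462). Targets of ATF4, the factor that answers amino acid shortage, had 0 of 27 called with 3 unadjusted p under 0.05 (limma). Over all loci, 4.86% were higher and 5.41% lower at this unadjusted threshold. Whether any of these lists stood apart from those shares was not tested. Asns, asparagine synthetase, was at 74.5 ± 9.6 FPKM in MADMR and 76.4 ± 9.69 FPKM in MWTMR mice (SD; adjusted p = 0.894, 95% interval of the difference -0.20 to 0.13). NRF2 and antioxidant enzymes had 0 of 19 called with 2 unadjusted p under 0.05 (limma), both lower: Gstm5, a glutathione transferase, at 657 ± 144 FPKM in MADMR and 747 ± 57.5 FPKM in MWTMR mice, and the locus of Gstm1 and its near copy Gstm3 at 104 ± 26.4 and 122 ± 14.5 FPKM in MADMR and MWTMR mice (SD; adjusted p = 0.356 and 0.461). The median of this list was -0.0869, with 5 of 19 above 0 (3 to 7 across the scalings).

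Nuclear genes of the respiratory chain had 0 of 24 called with 7 unadjusted p under 0.05 (limma), all lower. Their median was -0.121, against -0.051 over tested loci with a symbol, and 1 of 24 lay above 0 (0 to 2 across the scalings). Uqcrq, a subunit of complex III whose locus also holds Sowaha, was at 273 ± 42.4 FPKM in MADMR and 313 ± 27.2 FPKM in MWTMR mice (SD; adjusted p = 0.222), and Cox8a, of complex IV, at 253 ± 42 and 282 ± 27.5 FPKM in MADMR and MWTMR mice (SD; adjusted p = 0.394). In cholesterol and fatty acid synthesis, 1 of 27 genes was called, higher, and the median was -0.00449 (-0.0131 to 0.0266 across the scalings, so its sign was not fixed). Insig1, which holds back the activation of sterol synthesis, was at 24.2 ± 2.28 FPKM in MADMR and 19.4 ± 2.56 FPKM in MWTMR mice (SD; adjusted p = 0.192), with 11 of 11 MADMR mice above the MWTMR median. Fdft1, squalene synthase, was at 42.6 ± 6.67 FPKM in MADMR and 35.3 ± 5.05 FPKM in MWTMR mice (SD; adjusted p = 0.386, limma).

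**Figure D3:**
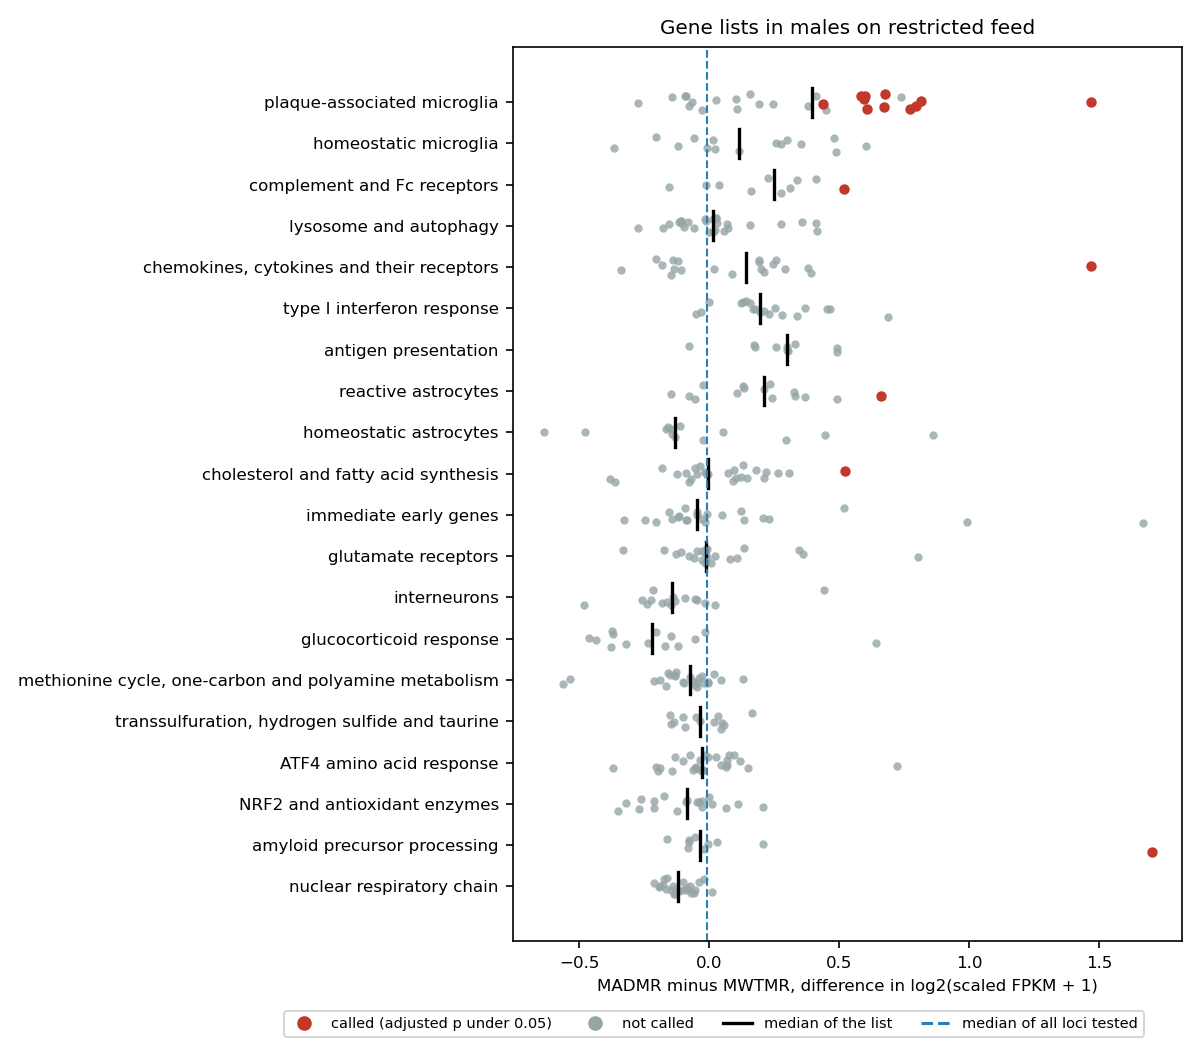
Difference of each tested member of the 20 pathway lists, MADMR minus MWTMR, in log2(scaled FPKM + 1). Red points are called and grey points are not, black bars are list medians and the dashed line is the median of all loci, at -0.00749. Over tested loci with a symbol the median was -0.051. The plaque-associated microglia list holds 11 red points and a median of 0.396, and most other lists hold none.

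The same genotype difference was measured in 3 other comparisons of the series that share no library with MADMR and MWTMR: MAD minus MWT, FADMR minus FWTMR, and FAD minus FWT. They share the estimate of the residual spread. All 8 groups entered the fit. Of the 24 loci, 23 had the same direction in males on standard feed, 24 in females on restricted feed and 21 in females on standard feed, and 7, 16 and 15 of them were called there, against 0.061%, 1.38% and 0.516% of all loci. The 7 called in all 4 comparisons were MSTRG.4241, Prnp, Ccl3, Clec7a, Lilrb4a, Cst7 and Slc11a1. Cd52, Ly86, Cd68, Fcer1g, Gfap, Lyz2, Tyrobp and Trem2 were called in both female comparisons and not in MAD minus MWT. The 4 falls and Tlr2 were among the 8 loci called in none of the others.

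Ccl3 differed by 1.47 ± 0.181 in MADMR minus MWTMR, 1.13 ± 0.176 in MAD minus MWT, 1.33 ± 0.181 in FADMR minus FWTMR and 1.76 ± 0.181 in FAD minus FWT (SE). Tyrobp differed by 0.60 ± 0.133 in MADMR minus MWTMR, 0.37 ± 0.13 in MAD minus MWT, 1.17 ± 0.133 in FADMR minus FWTMR and 1.05 ± 0.133 in FAD minus FWT (SE). Cc2d1a differed by -0.22 ± 0.0502, -0.16 ± 0.049, -0.16 ± 0.0502 and -0.02 ± 0.0502 (SE) in the same 4 comparisons. In the plaque list, 11 of 28 genes were called in MADMR minus MWTMR, 5 in MAD minus MWT, 17 in FADMR minus FWTMR and 14 in FAD minus FWT, with medians of 0.396, 0.284, 0.608 and 0.522.

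**Figure D4:**
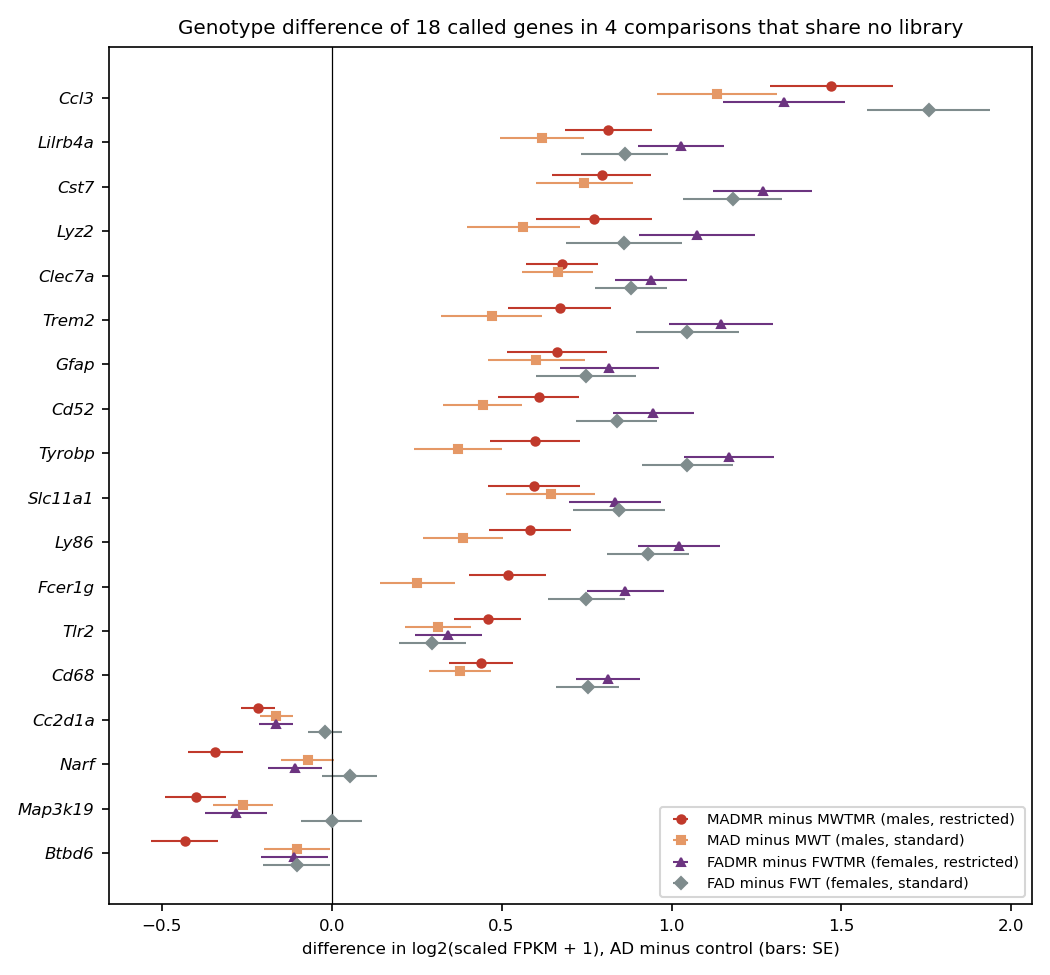
Genotype difference in log2(scaled FPKM + 1), AD minus control, for 18 called genes in the 4 comparisons, with bars of 1 SE; MADMR minus MWTMR is the red circle in each row. The 14 rising genes lie right of 0 in all 4 comparisons, Tyrobp at 0.60 in MADMR minus MWTMR and 1.17 in FADMR minus FWTMR, while the 4 falling genes lie nearer to 0 elsewhere. All 18 were picked by their call in MADMR minus MWTMR, a choice that by itself favours larger differences there.

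Whether the genotype difference itself depended on feed or sex was tested with interactions. Genotype by feed in males, (MADMR minus MWTMR) minus (MAD minus MWT), called 0 of 21300 loci in limma, with 750 at an unadjusted p under 0.05 (3.52%). Its smallest p-values among genes with a symbol belonged to 8430408G22Rik, Sgk1 and Yaf2, at -0.77, -0.99 and 1.22 (adjusted p = 0.216, 0.999 and 0.999). Since the 24 called loci were picked by MADMR minus MWTMR, which is 1 term of both interactions, their interactions are given as a description. Of the 24, 5 had an unadjusted p under 0.05, among them Btbd6 (-0.33, 95% interval -0.60 to -0.05) and Narf (-0.27, 95% interval -0.49 to -0.05). For Ccl3 this interaction was 0.34 with a 95% interval of -0.17 to 0.84, for Trem2 0.20 (-0.22 to 0.62) and for Cd52 0.16 (-0.17 to 0.50). The intervals of Ccl3, Trem2 and Cd52 held 0, and these data do not tell the values within each interval apart.

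Genotype by sex on restricted feed, (MADMR minus MWTMR) minus (FADMR minus FWTMR), also called 0 loci in limma, with 2701 at an unadjusted p under 0.05 (12.7%). Jak2, Gemin8 and Oxnad1 had the smallest p-values among genes with a symbol, at -0.44, -0.45 and -0.30 (adjusted p = 0.167, 0.238 and 0.238). Of the 20 rising loci, 15 had a smaller difference in males than in females. Of the 24 called loci, picked by 1 term of this interaction, 12 had an unadjusted p under 0.05, among them Tyrobp (-0.57, 95% interval -0.95 to -0.20), Cd68 (-0.37, -0.64 to -0.11), Cst7 (-0.47, -0.89 to -0.06) and Trem2 (-0.47, -0.90 to -0.05). None passed the adjustment: the adjusted p was 0.307 for Tyrobp and Cd68, 0.356 for Cst7 and 0.366 for Trem2.

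Among MADMR mice, 1 mouse stood above the rest. MADMR replicate 6 had the highest value in 13 of the 16 rising loci with a symbol. Over these 16 loci its mean deviation from the MADMR mean was 0.57 on the log2 scale, and the next mouse, replicate 4, was at 0.195. Trem2 was 51.8 FPKM in replicate 6 and 31.3 FPKM in replicate 4, and the other 9 MADMR mice lay between 19 and 26.5 FPKM.

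Across the 11 MADMR mice, 10 relations were computed, of Prnp with 5 genes and of Cst7 with 5 genes, with permutation tests adjusted by Benjamini-Hochberg over the 10. Pearson's r passed for 5. Cst7 went with Trem2 (r = 0.922, permutation p = 0.00052, adjusted p = 0.0052; rho = 0.727, permutation p = 0.0142). Without the 2 mice farthest from the median of Cst7, replicates 4 and 6, r was 0.564. Cst7 went with Cd52 (r = 0.85, permutation p = 0.00463, adjusted p = 0.0231; rho = 0.482, permutation p = 0.136), but r was 0.251 without those 2 mice, so this relation rests on them. Cst7 with Ccl3 gave r = 0.773 (permutation p = 0.0139, adjusted p = 0.0278; rho = 0.745, permutation p = 0.0114), and r = 0.716 without the same 2 mice but 0.404 without replicate 6 alone.

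Prnp went with Cst7 (r = 0.724, permutation p = 0.00984, adjusted p = 0.0278; rho = 0.773, permutation p = 0.00749) and with Ccl3 (r = 0.698, permutation p = 0.0114, adjusted p = 0.0278; rho = 0.727, permutation p = 0.0146). Without the 2 mice farthest in Prnp, replicates 3 and 5, r was 0.855 and 0.7. Prnp with Lilrb4a, Cd52 and Gfap gave r of 0.279, 0.456 and 0.249 (permutation p = 0.417, 0.158 and 0.46; rho = 0.364, 0.3 and 0.2, permutation p = 0.273, 0.371 and 0.56), and 0.714, 0.666 and 0.768 without the same mice. Cst7 with Lilrb4a and Gfap gave r of 0.474 and 0.623 (permutation, adjusted p = 0.198 and 0.0658; rho = 0.2 and 0.3, permutation p = 0.556 and 0.371), and -0.00714 and -0.137 without replicates 4 and 6. Without MADMR replicate 6, none of the 10 relations passed: r was 0.823 for Cst7 with Trem2 (permutation, adjusted p = 0.0607), 0.664 for Prnp with Cst7 and 0.663 for Prnp with Ccl3 (permutation, adjusted p = 0.131 for both). It was 0.62 for Cst7 with Cd52 and 0.404 for Cst7 with Ccl3 (permutation, adjusted p = 0.146 and 0.501), and between -0.102 and 0.351 for the other 5. Without MADMR replicate 1, 2 passed.

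**Figure D5:**
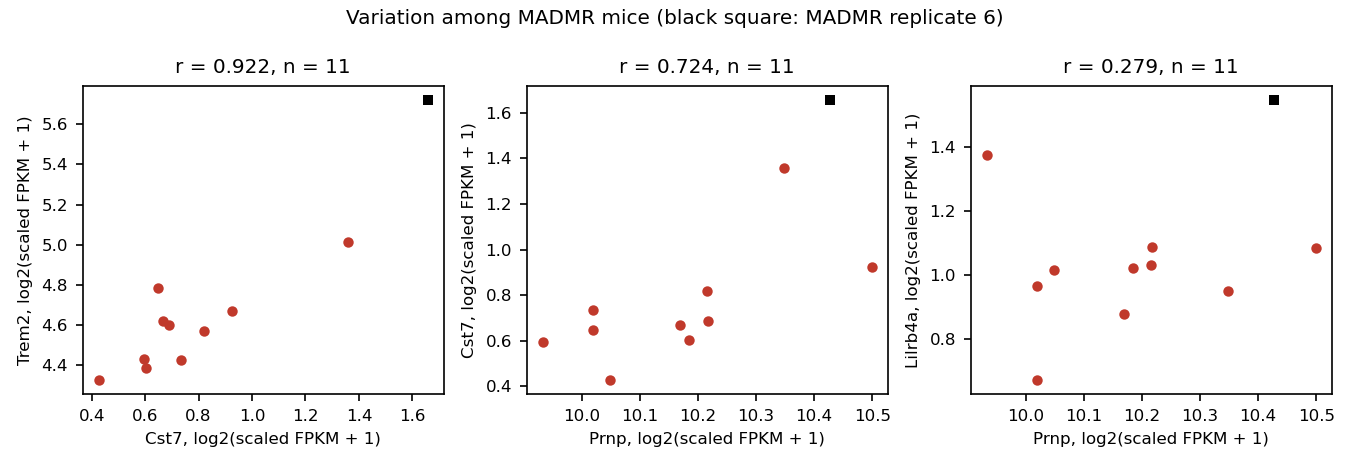
Scatter of scaled levels, log2(scaled FPKM + 1), over the 11 MADMR mice for Trem2 against Cst7, Cst7 against Prnp and Lilrb4a against Prnp; the black square is MADMR replicate 6. The square lies at the top of all 3 panels, and r is 0.922, 0.724 and 0.279.

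The calls differed in how far they rested on single mice, by limma's adjusted p. MSTRG.4241, Prnp, Ccl3, Clec7a, Lilrb4a, Cst7, Cd52 and Ly86 passed in every fit that left out 1 of the 21 libraries and in every alternative that tested them, with differences of 1.4 to 1.52 for Ccl3 and 0.525 to 0.642 for Cd52 with 1 library left out. Cd68 was lost without MADMR replicate 4 or 6 (highest adjusted p = 0.061) and Tlr2 without MADMR replicate 4 or MWTMR replicate 10 (0.0681). Lyz2 was lost without MADMR replicate 4 or 6 or MWTMR replicate 3 or 10 (0.0808). Fcer1g was lost without MADMR replicate 2, 4 or 6 or MWTMR replicate 4, 5, 10 or 11, each left out alone (up to 0.0752). Gfap was lost without MADMR replicate 3, 4 or 6 or MWTMR replicate 1, 4, 5, 10 or 11, each left out alone (up to 0.0946). Tyrobp was lost without MADMR replicate 2, 4 or 6 or MWTMR replicate 1, 4, 5, 10 or 11, each left out alone (up to 0.0837). Trem2 was lost without MADMR replicate 2, 4 or 6 or MWTMR replicate 1, 5, 6, 7, 10 or 11, each left out alone (up to 0.0958). Slc11a1 was lost without MADMR replicate 2, 3, 4, 5, 6, 7 or 9 or MWTMR replicate 1, 3, 4, 5, 7, 8, 10 or 11, each left out alone (up to 0.0927). Without a filter the adjusted p was 0.0501 for Tyrobp, 0.0576 for Trem2 and 0.0576 for Slc11a1, and with only the compared groups 0.0644, 0.084 and 0.0589 for these and 0.106 for Gfap. The fall of Map3k19 was lost without MADMR replicate 3, 5, 6, 7 or 9 or MWTMR replicate 3, 4, 6, 7, 10 or 11, each left out alone (up to 0.16). The fall of Btbd6 was lost without MADMR replicate 3, 4, 6 or 7 or MWTMR replicate 1, 4, 5, 7, 8, 9, 10 or 11, each left out alone (up to 0.11). The fall of Cc2d1a was lost without MADMR replicate 1, 2, 3, 4, 7, 8 or 11 or MWTMR replicate 1, 3, 4, 8, 9, 10 or 11, each left out alone (up to 0.0967). The fall of Narf was lost without MADMR replicate 1, 3, 4, 7, 8, 9, 10 or 11 or MWTMR replicate 3, 4, 5, 6, 8, 10 or 11, each left out alone (up to 0.145). No difference of a called locus changed its direction. The plaque list had 6 called genes without MADMR replicate 4, 6 without MADMR replicate 6 and 7 without MWTMR replicate 10, against 11 with all mice.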

How the data were processed

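The series holds 85 hippocampus libraries. Phenol and chloroform extraction and BGI-500 library preparation are stated per the labels' protocols. Trimmomatic 0.38, HISAT2 (with no version), StringTie 1.3.4d and build GRCm38.p6 are listed per the submitters' processing notes. The authors deposited FPKM in 1 table of 56090 rows. Rows with the same symbol were summed here, and 14100 rows without a symbol were kept under their assembly identifiers. FPKM holds no counts, so no counting interval can be given.

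Scaling factors of 0.892 to 1.12 came from the median ratio of each library to the geometric mean over 19482 loci. Tests covered the 21300 loci that reached 1 FPKM in 10 or more libraries, 7356 of them without a symbol. The model was limma 3.58.1 in R 4.3.3 on log2(scaled FPKM + 1), with a mean for each of 8 groups, a trend and a robust prior (77 residual degrees of freedom). Tests were two-sided, and Benjamini-Hochberg adjustment ran over all tested loci at a threshold of 0.05. The fit was tested on simulated data. Relations used 100000 resamples.

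The members, the gene lists and the genes to name were chosen with earlier results of these data known. Named are every called locus with a symbol, the largest rise without one, up to 4 members of each list by smallest p, the 3 smallest p of an interaction with no call, and Ccl3, Lilrb4a, Cd52, App, Prnp, Cst7, Trem2, Tyrobp, Clec7a, Gfap, Mat2a, Asns, Arc, Ttr, Drd1 and Mbp. Some genes under this rule are not reported here but are included in every count. Promoters are RefSeq's. No library was left out.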

Additional observations from a re-analysis of the deposited data

Results flagged for a closer look

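In 89 genes picked by the rule for named genes, the 10 MWTMR mice were searched for a single value that stood far from the other 9 (Dixon's ratio over 0.466 on the log2 scale). MADMR, with 11 mice, was not searched. Chance flags about 1 in 20 groups, and 9 values were found.

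MWTMR replicate 11 gave 6 of them, all at the low end. It had the lowest level of Fcrls (4.787 FPKM, next mouse 11.06), Cth (0.4037, next 0.8132), Gstm5 (593.4, next 737.3), App (2062, next 2775), Aplp2 (196, next 241.2) and Map1lc3b (110.1, next 131.8). Its median correlation with the other libraries was 0.942, the lowest of its group. Without it, the test called 16 loci higher and 5 lower, and 14 of the 24 reported calls passed. MADMR replicate 3, of the group not searched, had a lower median correlation, 0.939, the lowest of the 21 libraries. Without MADMR replicate 3, the test called 16 loci higher and 0 lower, and 16 of the 24 passed.

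MWTMR replicate 4 was highest for Htr3a, a serotonin receptor of interneurons (1.825 FPKM, next mouse 1.117). MWTMR replicate 6 was highest for Slc11a1 (5.922 FPKM, next 4.198), a rising gene. MWTMR replicate 10 was highest for MSTRG.4241 (0.1035 FPKM, next 0.05134), still far below the lowest MADMR mouse at 1.85 FPKM.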

How the results depend on the processing

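The 24 called loci kept their direction in every alternative that tested them. The count of higher loci, 20 in the reported fit, was 12 with a filter at 5 FPKM, 336 with array weights, and 11 to 21 with 1 library left out (11 without MADMR replicate 4 or MWTMR replicate 10). The count of lower loci, 4 as reported, was 0 with FPKM as deposited, with an equal total per library, with only the compared groups and with the replicate block, 363 with array weights, 14 with tissue covariates, 7 with symbol loci alone, 2 with factors from loci at 1 FPKM or more everywhere, and 0 to 9 with 1 library left out. Genotype by feed in males had 1 call with array weights, 1 with tissue covariates and 0 to 1 with 1 library left out. Genotype by sex had 20 with array weights and 0 with any library left out. Of the 24 loci, 15 passed without a filter, 14 with only the compared groups and 24 with tissue covariates.

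Replicate numbers did not pair the mice: same-numbered mice correlated at -0.102 to 0.171 over 10 pairs, 1 above 0.1, and 2 of them best with their own number. With the replicate block 14 loci were called higher and 0 lower, and 14 of the 24 passed again. Among the calls it ended were those of Fcer1g (adjusted p = 0.0503, limma), Tyrobp (0.0539), Trem2 (0.0539), Slc11a1 (0.064) and the falls Map3k19 (0.0539), Btbd6 (0.0539), Cc2d1a (0.077) and Narf (0.0791).

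Mat2a, not called, turned to 0.0257 with FPKM as deposited, 0.0268 with an equal total and 0.0207 with factors from loci at 1 FPKM or more, and ran from -0.258 to 0.0739 with 1 library left out. Ttr turned to 0.253 with tissue covariates, and Mbp ran from -0.00263 to 0.213 with 1 library left out. Of the 10 relations, 5 passed as reported, 2 with an equal total and 0 to 6 with 1 library left out. With 1 MADMR library left out, r ran from -0.0409 (without replicate 6) to 0.627 for Prnp with Lilrb4a, from -0.00671 to 0.586 for Prnp with Gfap and from -0.102 to 0.655 for Cst7 with Lilrb4a. The alternatives of the relations and the other choices of scaling loci were added after seeing the data. Where nothing is said of a cause, the cause was not tested. Depth being unknown, low genes such as Cst7 carry an error that cannot be stated from counts.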

Other observations

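Itgax, an integrin of plaque-associated microglia that was under the filter and so had no test, was at 0.117 ± 0.0587 FPKM in MADMR and 0.019 ± 0.00612 FPKM in MWTMR mice (SD, n = 11 and 10). Its lowest MADMR value, 0.049 FPKM, was above its highest MWTMR value, 0.0313 FPKM. It was picked after its values were seen. In females it was at 0.368 ± 0.423 FPKM in FADMR and 0.0241 ± 0.0127 FPKM in FWTMR mice (SD, n = 11 and 10). In males on standard feed it was at 0.123 ± 0.0541 FPKM in MAD and 0.0262 ± 0.0119 FPKM in MWT mice (SD). In females on standard feed it was at 0.258 ± 0.151 FPKM in FAD and 0.0304 ± 0.0181 FPKM in FWT mice (SD).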
